A study of Mus musculus with 8 samples.

Results

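Microtubule motors of the mouse ventral midbrain were compared between Ercc1 delta/+ and wild type samples through the messenger RNA of the kinesin, cytoplasmic dynein and dynactin genes. Members were chosen by gene symbol, with earlier results of these data known. Symbols of Kif and Kifc genes, Dync1, Dync2 and Dynl genes and Dctn1 to Dctn6 were taken, and 58 of the 15274 genes measured matched. They were divided by known role into 15 axonal transport kinesins, 10 mitotic kinesins, 11 other kinesins and 22 dynein and dynactin genes. The name of the first group is a label only, since some of its kinesins, such as Kif17, also serve cilia. The same search terms cover Kif2b, Kif2c, Kif12, Kif14, Kif28, Dync2i1, Dync2i2, Dynlt2a1, Dynlt2b, Dynlt4 and Dynlt5, which were not analysed here.

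Poly(A) RNA was sequenced from 4 Ercc1 delta/+ and 4 wild type samples. Mutants carried 1 mutant allele of Ercc1, which encodes a subunit of a DNA repair endonuclease, and were bred on a mixed FVB:C57BL/6J background, the strain also given for the wild type samples. The sources used here give neither age, sex nor the part of the transcript that the delta allele removes. Whether the samples of a group came from separate animals is not stated either, so p-values reflect only the spread of these samples, which may be technical. The title of the series places the comparison in the study of DNA repair and Parkinson disease.

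Kinesins are motors that mostly walk towards the plus ends of microtubules, which in axons point away from the cell body, and so carry vesicles, mitochondria and cytoskeletal cargo outwards. Cytoplasmic dynein walks the opposite way and returns endosomes and signals to the cell body, with dynactin as the cofactor that links it to cargo and makes it processive. Other kinesins build the mitotic spindle of dividing cells or serve the assembly and beating of cilia. Dopaminergic neurons of the ventral midbrain have very long, branched axons, and human DCTN1, the gene of the largest dynactin subunit, is mutated in Perry syndrome, a disease with parkinsonism.

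Libraries held between 18268373 and 31197522 counts, so 3 counts correspond to between 0.0915 and 0.17 CPM (counts scaled to library size), a limit that covers counting error only. Ercc1 itself stood at 10.2, 12.9, 11.1 and 11.9 CPM in mutant replicates 1 to 4 and at 14.1, 15.4, 15.0 and 13.8 CPM in wild type replicates 1 to 4, so every library lay on the side of its label. Its log2 fold change, mutant over wild type, was -0.34 (SE 0.10), and the Benjamini-Hochberg adjusted p of the edgeR quasi-likelihood test was 0.114, short of the threshold of 0.05 (0.0389 with DESeq2). Neuron markers were present in all libraries, with a summed level of 4250 to 6410 CPM over 7 genes, as were dopaminergic neuron markers, with 165 to 368 CPM over 6 genes. Libraries also differed in neighbouring tissue. Choroid plexus markers (8 genes) ran from 72.6 to 1140 CPM in mutants and from 60.0 to 154 CPM in wild type, and markers of cortical and hippocampal neurons (6 genes) from 244 to 774 CPM and from 101 to 491 CPM. In tissue RNA, fewer cells of a type and less RNA per cell cannot be told apart.

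Levels in wild type midbrain spanned more than 3 orders on a log10 scale when counts were divided by transcript length. Kif5a, a neuronal heavy chain of kinesin-1, stood at 404 ± 109 CPM per kilobase (SD, n = 4), and Dynll2, a dynein light chain that is also a hub for many other proteins, at 390 ± 21.3. These first places do not differ beyond their spread. Kif1a, the kinesin-3 that carries synaptic vesicle precursors, followed at 233 ± 10.8, and Kif1b, its relative that moves mitochondria and vesicle precursors, at 163 ± 2.53. The dynein light chain gene Dynlrb1 came next at 150 ± 5.09 CPM per kilobase. Kif5a lay at percentile 99.6 of all genes with a length, and Kif1a at 98.9. Another Kif1a transcript held 384957 counts against 385264, with an annotated length of 5391 bases instead of 8206. The level of Kif1a per kilobase thus depends on the length taken.

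The next places belonged to motors and cofactors whose spreads overlap. Dctn2, which encodes the dynactin shoulder subunit dynamitin, stood at 129 ± 6.47 CPM per kilobase (SD, n = 4), Kif5c at 125 ± 17.5, Kifc2, a minus-end kinesin of neurons, at 124 ± 11.0 and Dctn1 at 118 ± 2.81. Below Dctn1 the level dropped to 76.0 ± 3.37 for Kif3a. The dynein heavy chain gene Dync1h1 had 57.6 ± 6.81 CPM per kilobase, close to its intermediate chains Dync1i1 (54.6 ± 2.64) and Dync1i2 (54.3 ± 1.70). The light intermediate chains were unequal, with 64.2 ± 3.51 for Dync1li2 and 32.0 ± 2.29 for Dync1li1.

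All 10 mitotic kinesins lay at or below 3.27 CPM per kilobase, the level of Kif20a, a motor of cytokinesis. Of the exon bases of Kif20a, 29.3% overlap Cdc23 on the opposite strand, and the treatment of strand in counting is unknown, so its level is uncertain. The other 9 lay between 0.0769 (Kif18b) and 1.26 (Kifc1) CPM per kilobase. Markers of dividing cells were as scarce: 5 of the 7 listed were measured, none was at 0 in any library, and they summed to between 3.61 and 5.85 CPM in mutant and between 3.21 and 4.61 CPM in wild type libraries. Kif18b had 46 counts over all 8 libraries and was left out of the tests by the filter on low counts, so 57 members were tested.

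**Figure D1:**
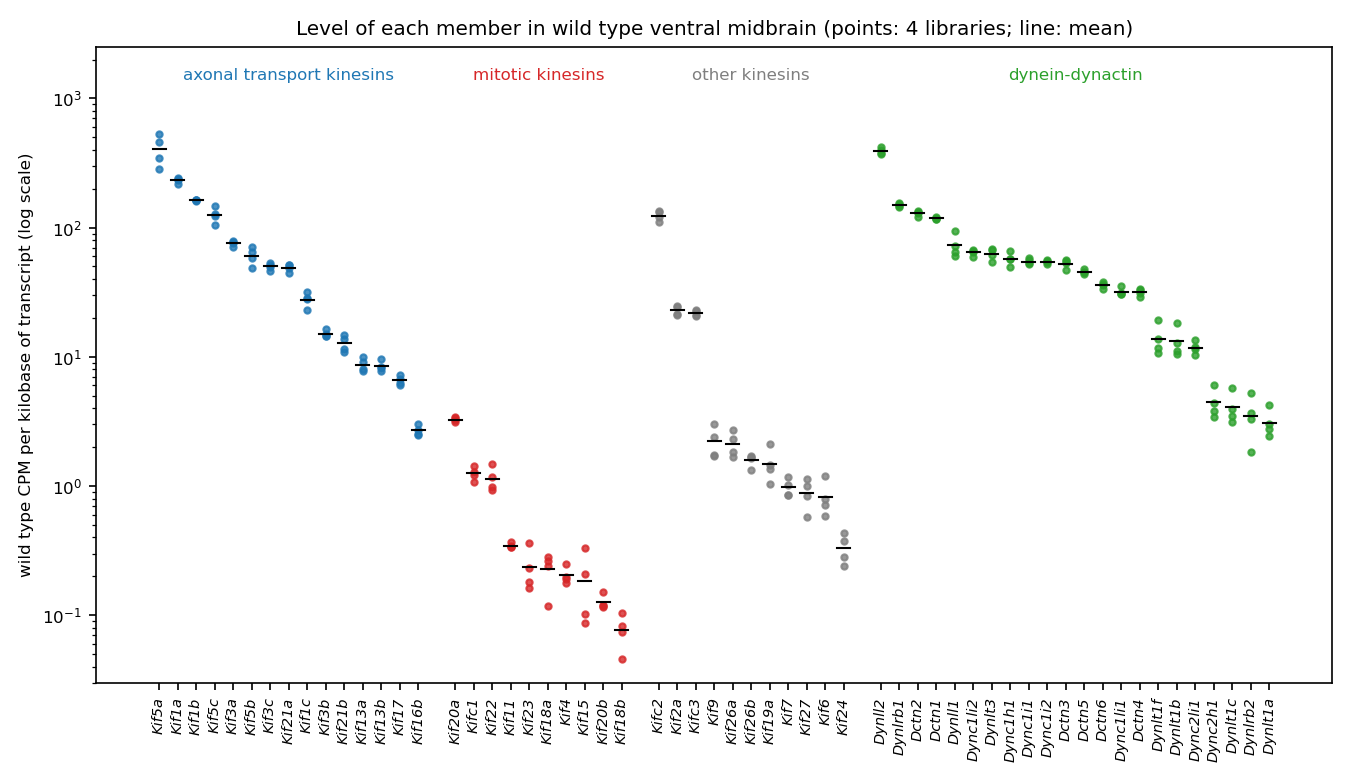
Level of all 58 members in the 4 wild type libraries, in CPM per kilobase of annotated transcript on a log axis, by role; points are libraries and lines are means. Kif5a (404) and Dynll2 (390) lead, and the mitotic kinesins lie at or below 3.27.

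Among the 36 kinesins, the division of the summed level between families differed by less than the spread between replicates. Kinesin-1 (Kif5a, Kif5b and Kif5c) made up 41.0% ± 1.48 of the kinesin CPM per kilobase in mutants and 40.9% ± 5.82 in wild type (SD, n = 4 each). Kinesin-3 (Kif1a to Kif1c, Kif13a, Kif13b and Kif16b) made up 31.5% ± 1.06 and 31.3% ± 3.40. The heterotrimeric and homodimeric kinesin-2 motors (Kif3a to Kif3c and Kif17), which serve neurons and cilia, had 10.2% ± 0.312 and 10.4% ± 1.05. Wild type libraries were the more spread: their kinesin-1 share ran from 34.3% in replicate 4 to 47.6% in replicate 2, and the mutant share from 39.7% to 43.1%.

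No kinesin, dynein or dynactin gene changed between genotypes at the threshold used over all genes. With the edgeR quasi-likelihood test and an adjusted p under 0.05, 0 of 57 members were called, where 7 of 14989 genes (0.0467%) were. That count over all genes was 321 without mutant replicate 2, 0 without mutant replicate 4 and 1 to 3 without any other library. At an unadjusted p under 0.05 there were 5 members, or 8.77%, against 18.6% of all genes. Dync1h1, Kif1b and Kif3b were the 3 on the higher side (9.03% of all genes) and Dynlt3 and Dctn3 the 2 on the lower side (9.57%). Groups did not overlap for 4 members (7.02%), all higher in mutants, against 12% of all genes (5.17% higher and 6.86% lower). Taken over both directions, these shares of the members lay below those of all genes. On the mutant-higher side alone the share with groups apart lay above (7.02% against 5.17%). DESeq2 called 2 members, Dync1h1 and Kif1b, and 1028 genes (6.86%), while limma-voom and the edgeR exact test called 0 members.

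These counts depended on single libraries and on the setting. Members at an unadjusted p under 0.05 numbered 3 when mutant replicate 1 was left out (13.6% of all genes), 2 for mutant replicate 4 (13.9%) and 3 for wild type replicate 1 (14.7%), and 4 to 7 for each of the others (13.4% to 19.9%). They numbered 2 with the edgeR exact test (13.5%), 8 with a covariate for low depth (mutant replicates 1, 2 and 4 and wild type replicate 2; 15.9%), and 1 (11.0% of all genes) with an offset that removes each library's trend over transcript length and GC content. Members with groups apart numbered 7 when mutant replicate 3 or wild type replicate 3 was left out (18.0% and 14.3% of all genes) and 10 when wild type replicate 4 was left out (18.4%). They numbered 1 with upper-quartile scaling (12.4%) and 1 with the offset (6.81%). Among members, the authors' deposited table held 0 with an adjusted p under 0.05, the lowest being 0.264 for Dync1h1, among 371 of 19931 transcripts called.

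**Figure D2:**
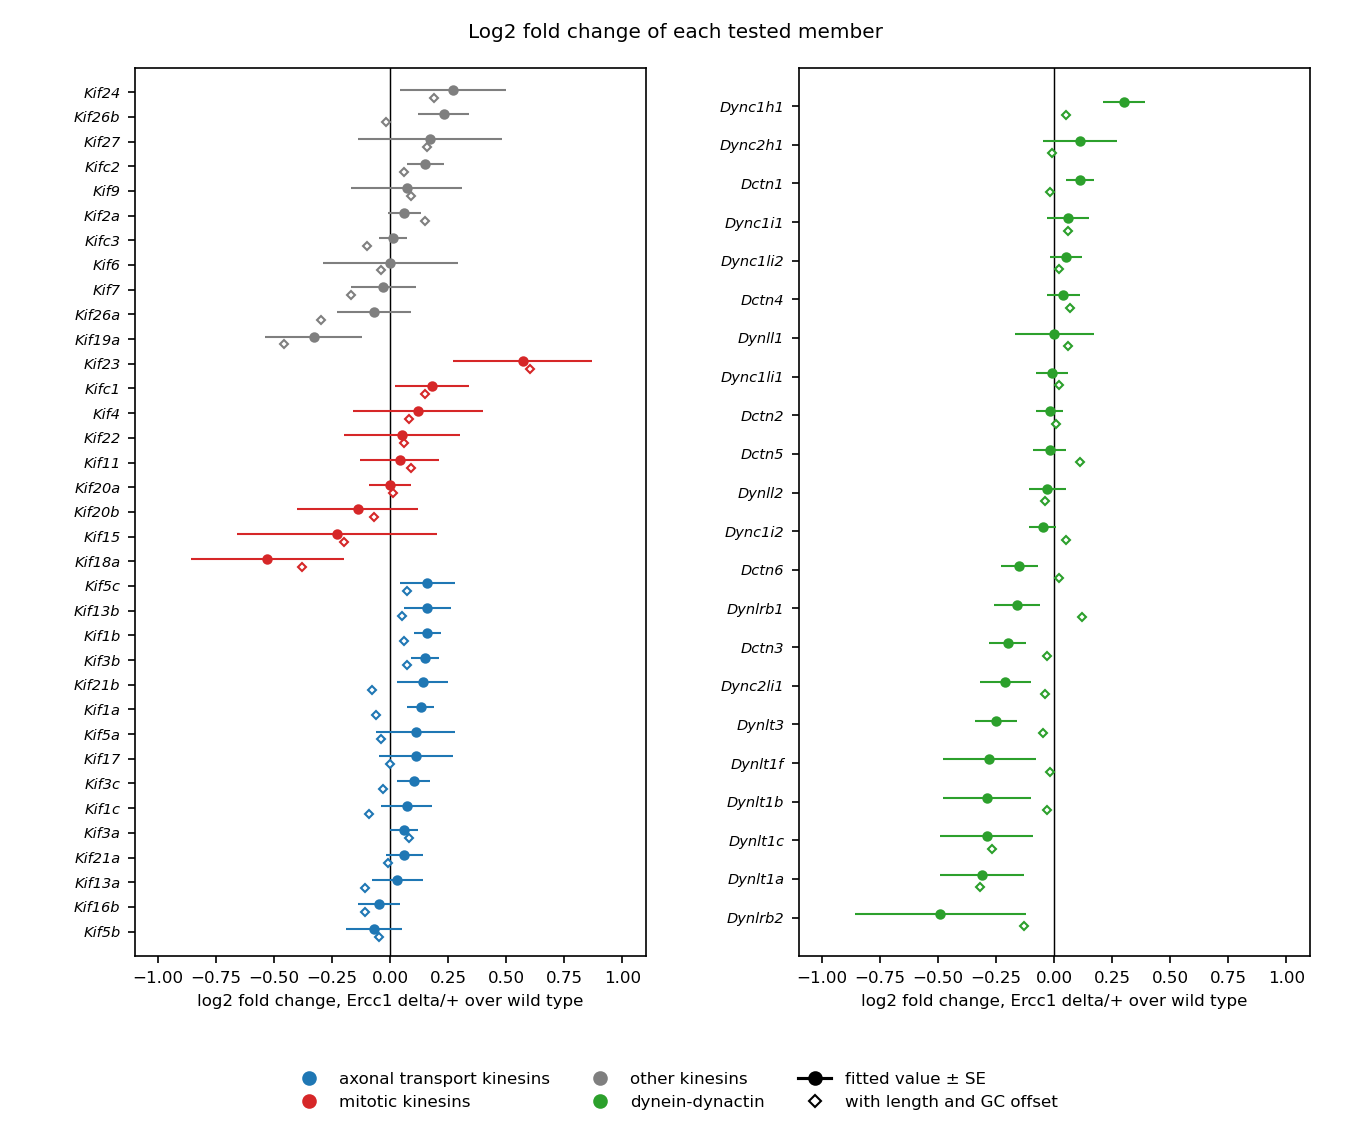
Log2 fold change (Ercc1 delta/+ over wild type) of the 57 tested members by role; circles with bars are edgeR estimates ± SE and diamonds are the estimates with the length and GC offset. Most axonal transport kinesins lie to the right of 0 and most short dynein light chains to the left, and with the offset the medians of the axonal and the dynein-dynactin group are -0.03 and 0.00.

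Of the 15 axonal transport kinesins, 13 were positive and 2 negative on the log2 scale. The median log2 fold change was 0.11 and the range -0.07 to 0.16, where the median of all genes was -0.003 and 49.5% of genes were positive and 50.5% negative. None passed the edgeR test over all genes tested. Their transcripts are long, with a median of 6333 bases against 3005 for all genes. With the length and GC offset the median was -0.03, with 5 positive and 10 negative values (50.9% and 49.1% of all genes in that setting).

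Kif1b held 1100, 1130, 1100 and 1020 CPM in mutant replicates 1 to 4 and 986, 955, 987 and 980 CPM in wild type replicates 1 to 4. Every mutant library was above every wild type library, and the wild type values lay close together. Its log2 fold change was 0.16 (SE 0.06), or 1.11-fold, with an edgeR adjusted p of 0.204. The DESeq2 adjusted p was 0.0257, and over all alternatives the adjusted p ran from 0.0257 to 0.733. With the offset the value was 0.06. Both transcript forms of Kif1b had positive values. The form with more counts (198423, on 5992 bases) had 0.15 and the other (32161, on 6991 bases) 0.23. Their adjusted p-values were 0.202 and 0.103 in the edgeR fit on every transcript.

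Kif1a held 2010, 2190, 2140 and 2020 CPM in mutant replicates 1 to 4 and 1960, 1790, 1900 and 1980 CPM in wild type. The groups did not overlap, with a narrow gap between mutant replicate 1 and wild type replicate 4. The log2 fold change was 0.13 (SE 0.06, edgeR adjusted p = 0.313), and with the offset, taken at a length of 8206 bases, it was -0.06. Kif3b, which pairs with Kif3a in the kinesin-2 motor of neurons and cilia, held 101, 92.7, 89.8 and 93.3 CPM in mutants and 82.1, 91.9, 84.9 and 81.2 CPM in wild type. Wild type replicate 2 lay inside the mutant range, and the log2 fold change was 0.15 (SE 0.06, edgeR adjusted p = 0.260). Kif3a, its partner, had 0.06 (SE 0.06), and Kif21a, a kinesin-4 of axons, also 0.06 (SE 0.08).

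Kinesin-1 heavy chains differed more within wild type than between genotypes. Kif5a held 2950, 2730, 2680 and 2590 CPM in mutant replicates 1 to 4 and 2170, 3310, 2890 and 1790 CPM in wild type replicates 1 to 4. Wild type thus had both the highest and the lowest library, and the mutants lay between them. The log2 fold change was 0.11 (SE 0.17, edgeR adjusted p = 0.773), and leaving out wild type replicate 4 gave -0.03, where leaving out wild type replicate 2 gave 0.26. Kif5b, the widely expressed kinesin-1, had -0.07 (SE 0.12) and Kif5c, like Kif5a enriched in neurons, 0.16 (SE 0.12).

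The 3 heavy chains were low together in wild type replicate 4, by -0.54, -0.27 and -0.34 for Kif5a, Kif5b and Kif5c on the log2 scale against the mean of all libraries. Kif5a and Kif5b were highest in wild type replicate 2, and Kif5c in mutant replicate 2. Most marker sums were also lowest in wild type replicate 4, at 4250 CPM for neurons, 101 for cortical and hippocampal neurons, 5870 for oligodendrocytes, 2590 for astrocytes, 195 for microglia and 60.0 for choroid plexus. In wild type replicates 1 to 3 the neuron sum was 5450, 5470 and 5470 CPM, beside 2170, 3310 and 2890 CPM for Kif5a. In the same libraries the sum for cortical and hippocampal neurons was 223, 491 and 240 CPM. That for astrocytes was 3030, 4310 and 2760 CPM, and that for oligodendrocytes 8190, 9140 and 10700 CPM. The part of these markers in the kinesin-1 values was not tested.

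Kif13b, a kinesin-3 that binds endosomal and signalling cargo, held 50.0, 62.4, 50.7 and 49.2 CPM in mutants and 45.6, 46.3, 54.3 and 43.2 CPM in wild type. Mutant replicate 2 stood above all others, and the log2 fold change was 0.16 (SE 0.10, edgeR adjusted p = 0.411). It was 0.08 without that library. The remaining axonal transport kinesins (Kif1c, Kif3c, Kif13a, Kif16b, Kif17 and Kif21b) lay between -0.05 and 0.14. Of the exon bases of Kif3c, 35.3% overlap the antisense gene 1110002L01Rik, so its value is uncertain.

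**Figure D3:**
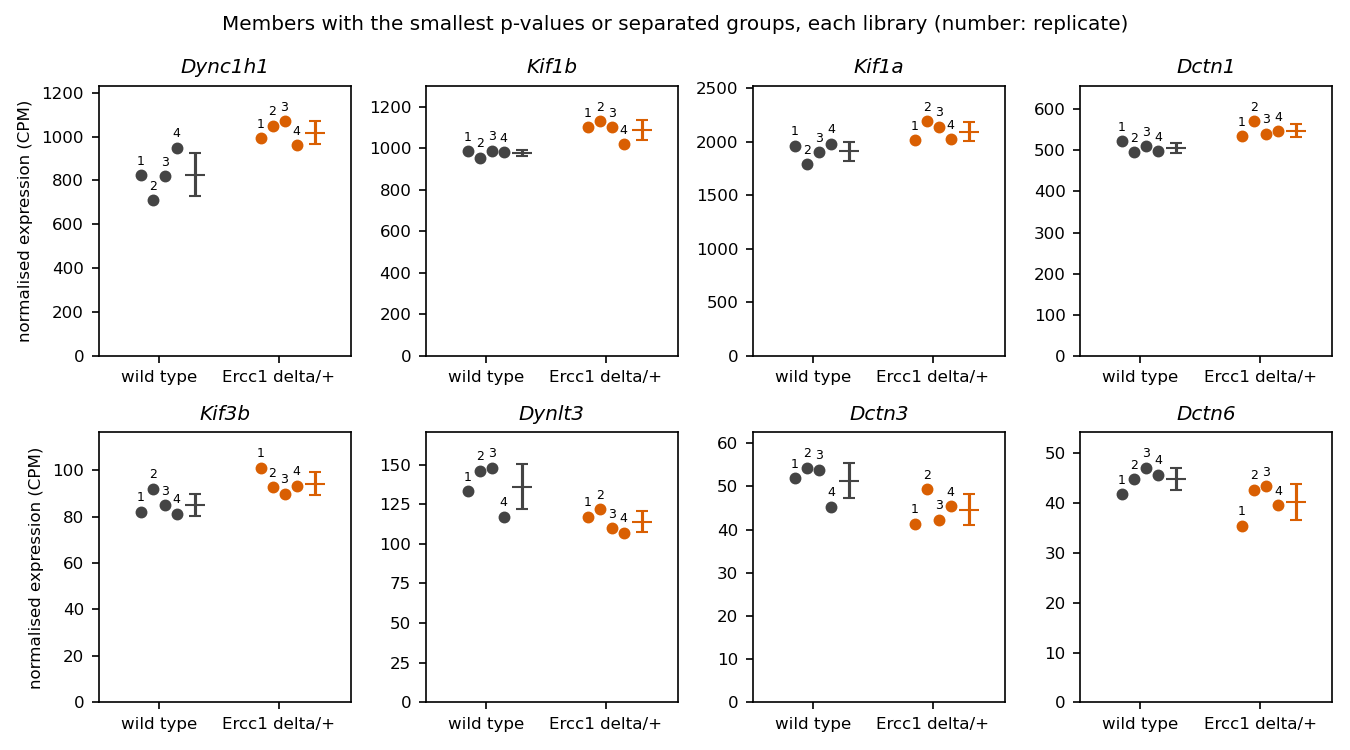
Normalised expression (CPM, axes from 0) of 8 members in each library, with replicate numbers and mean ± SD (n = 4); grey is wild type and orange is Ercc1 delta/+. In Dync1h1, Kif1b, Kif1a and Dctn1 all mutant points lie above all wild type points, and in Kif3b, Dynlt3, Dctn3 and Dctn6 the groups overlap.

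Cytoplasmic dynein is a large complex around paired heavy chains, and its subunit genes had values of both signs. Of the 22 dynein and dynactin genes, 6 were positive and 16 negative, with Dynll1 (0.00) placed by its unrounded value. Of all genes 49.5% were positive and 50.5% negative. The median log2 fold change of the 22 was -0.04 (0.00 with the offset, 11 positive and 11 negative). At an unadjusted p under 0.05, 1 was higher (4.55%, against 9.03% of all genes) and 2 were lower (9.09%, against 9.57%). None passed the edgeR test after adjustment.

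Dync1h1, the motor subunit itself, had the smallest p of all members. It held 993, 1050, 1070 and 960 CPM in mutant replicates 1 to 4 and 824, 711, 818 and 949 CPM in wild type replicates 1 to 4. Every mutant library was above every wild type library, although mutant replicate 4 and wild type replicate 4 nearly met. The mutant mean was 1020 ± 50.0 CPM and the wild type mean 825 ± 97.6 CPM (SD, n = 4), a log2 fold change of 0.30 (SE 0.09), or 1.23-fold, with an edgeR adjusted p of 0.129. The DESeq2 adjusted p was 0.0261, and over all alternatives the adjusted p ran from 0.0261 to 0.834. Leaving out 1 library gave 0.24 to 0.38. Its transcript of 14342 bases is the longest of all members, and with the length and GC offset the log2 fold change was 0.05 (SE 0.07).

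The intermediate and light intermediate chains, which hold the heavy chains and bind adaptors, lay near 0. Log2 fold changes were 0.06 (SE 0.09) for Dync1i1, -0.05 (SE 0.06) for Dync1i2, -0.01 (SE 0.07) for Dync1li1 and 0.05 (SE 0.07) for Dync1li2. Single libraries set some of these values: Dync1i1 had 175 CPM in mutant replicate 2 and 132 to 150 CPM in all others, and without that library its log2 fold change was -0.03. Dync1li1 had 92.1 CPM in wild type replicate 1 and 77.5 to 86.3 CPM elsewhere, and without that library its value was 0.04.

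Dynein light chains come in the LC8 (Dynll), roadblock (Dynlrb) and Tctex (Dynlt) families. Among the LC8 genes, Dynll1 had a log2 fold change of 0.00 (SE 0.17) with a wide spread of 113 to 191 CPM, and Dynll2 had -0.03 (SE 0.08). Their coding sequences differ at 50 of 267 bases (81.3% identity). The first 90 coding bases of each are shown for comparison with the Tctex genes, with the 18 positions that differ in capitals, from GENCODE M21 transcripts (GRCm38).
Dynll1: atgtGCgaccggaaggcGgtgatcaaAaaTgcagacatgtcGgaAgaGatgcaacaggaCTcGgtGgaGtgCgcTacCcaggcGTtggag
Dynll2: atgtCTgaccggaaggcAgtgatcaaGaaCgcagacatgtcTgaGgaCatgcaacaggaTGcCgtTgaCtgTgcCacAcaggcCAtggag

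The Tctex genes Dynlt1a, Dynlt1b, Dynlt1c and Dynlt1f are near-identical copies. Over 339 coding bases Dynlt1a, Dynlt1c and Dynlt1f are identical, and Dynlt1b differs from them by C21A, counted from 1 at the A of the start codon. The stretch that holds the only difference is shown, bases 1 to 90 of the same transcript set, with that position in capitals.
Dynlt1a: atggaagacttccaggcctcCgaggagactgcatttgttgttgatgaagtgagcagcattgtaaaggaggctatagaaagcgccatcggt
Dynlt1b: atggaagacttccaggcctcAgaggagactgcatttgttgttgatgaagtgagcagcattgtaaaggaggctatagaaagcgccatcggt
Dynlt1c: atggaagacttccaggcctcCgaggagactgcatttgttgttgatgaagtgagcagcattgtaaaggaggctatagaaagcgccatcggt
Dynlt1f: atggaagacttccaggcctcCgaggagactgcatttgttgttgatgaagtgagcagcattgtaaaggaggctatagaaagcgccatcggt

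Their total counts over the 8 libraries were also nearly equal, at 1863, 1860, 1930 and 1949, so the 4 genes may not be separate measurements and their levels are uncertain. Dynlt1a held 7.39, 7.88, 10 and 7.96 CPM in mutants and 9.96, 8.03, 9.10 and 14.1 CPM in wild type. Wild type replicate 4 stood highest and the groups overlapped. Log2 fold changes of the 4 lay between -0.31 and -0.28, each with an SE of 0.18 to 0.20. These copies, with nearly equal values, enter the dynein and dynactin count of 16 negative genes 4 times.

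Dynlt3, a Tctex chain with a sequence of its own, held 117, 122, 110 and 107 CPM in mutant replicates 1 to 4 and 133, 146, 148 and 117 CPM in wild type replicates 1 to 4. Only wild type replicate 4 reached into the mutant range. The log2 fold change was -0.25 (SE 0.09), a ratio of 0.841, with an edgeR adjusted p of 0.173, and over all alternatives the adjusted p ran from 0.0982 to 0.868. With the offset the value was -0.05.

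Of the roadblock genes, Dynlrb1 held 77.1, 108, 91.2 and 91.1 CPM in mutants and 98.7, 105, 106 and 100 CPM in wild type. Mutant replicate 2 exceeded every wild type library while the other mutants lay below all of them, and the log2 fold change was -0.16 (SE 0.10, edgeR adjusted p = 0.409). It was -0.08 without mutant replicate 1 and -0.24 without mutant replicate 2. This transcript has 684 bases, and with the length and GC offset the value was 0.12 (edgeR adjusted p = 0.404), which made Dynlrb1 the 1 member of 57 whose groups did not overlap in that setting (6.81% of all genes). Its relative Dynlrb2, linked to motile cilia, was scarce, with a mutant mean of 1.28 ± 0.511 CPM and a wild type mean of 1.81 ± 0.728 CPM (SD, n = 4).

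Dynactin gene values followed no common sign. Dctn1 encodes the long side arm that binds microtubules and dynein. It held 534, 571, 541 and 547 CPM in mutants and 522, 496, 510 and 498 CPM in wild type. The groups did not overlap, with the lowest mutant just above the highest wild type library. The log2 fold change was 0.11 (SE 0.06), or 1.08-fold, with an edgeR adjusted p of 0.303 and a range of 0.0789 to 0.927 over the alternatives. With the offset it was -0.02.

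The smaller dynactin subunits had shorter transcripts and values at or below 0, except Dctn4. Dctn3, of the shoulder, held 41.3, 49.3, 42.3 and 45.4 CPM in mutants and 51.9, 54.3, 53.8 and 45.3 CPM in wild type. Wild type replicate 4 lay among the mutants, and the other wild type libraries above all of them. Its log2 fold change was -0.20 (SE 0.08, edgeR adjusted p = 0.232), and -0.03 with the offset. Dctn6, of the pointed end, held 35.5, 42.7, 43.4 and 39.6 CPM in mutants and 41.8, 44.8, 47.1 and 45.7 CPM in wild type, with a log2 fold change of -0.15 (SE 0.08) and 0.02 with the offset. Dctn2, Dctn4 and Dctn5 lay near 0, at -0.02 (SE 0.06), 0.04 (SE 0.07) and -0.02 (SE 0.07).

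Across members, the log2 fold change went with transcript length. The Dynlt1 copies were counted as 1, through Dynlt1a (3321 bases). Of members under 2000 bases, 0 of 7 were positive (median -0.16), where 26.5% of all genes of that length were positive (median -0.13). With Dynlt1b (771 bases) in its place it was 0 of 8 (median -0.18). From 2000 to under 5000 bases 16 of 28 were positive (median 0.04; 51.4% of all genes, median 0.01). At 5000 bases or more 15 of 19, or 78.9%, were positive, and 75.3% of all genes were, both with a median of 0.11. With Dynlt1a as the copy, the median of the members in each length class lay within 0.03 of that of all genes.

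Spearman coefficients of log2 fold change with length describe the same pattern across genes, which share libraries and are not independent. The coefficient was 0.395 over 14734 genes, 0.489 over 54 members and 0.733 over 19 dynein and dynactin genes, with the Dynlt1 copies as 1. With the offset it was 0.076 over all genes and -0.199 over the 54 members. The part of RNA quality or library preparation in this trend was not tested.

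**Figure D4:**
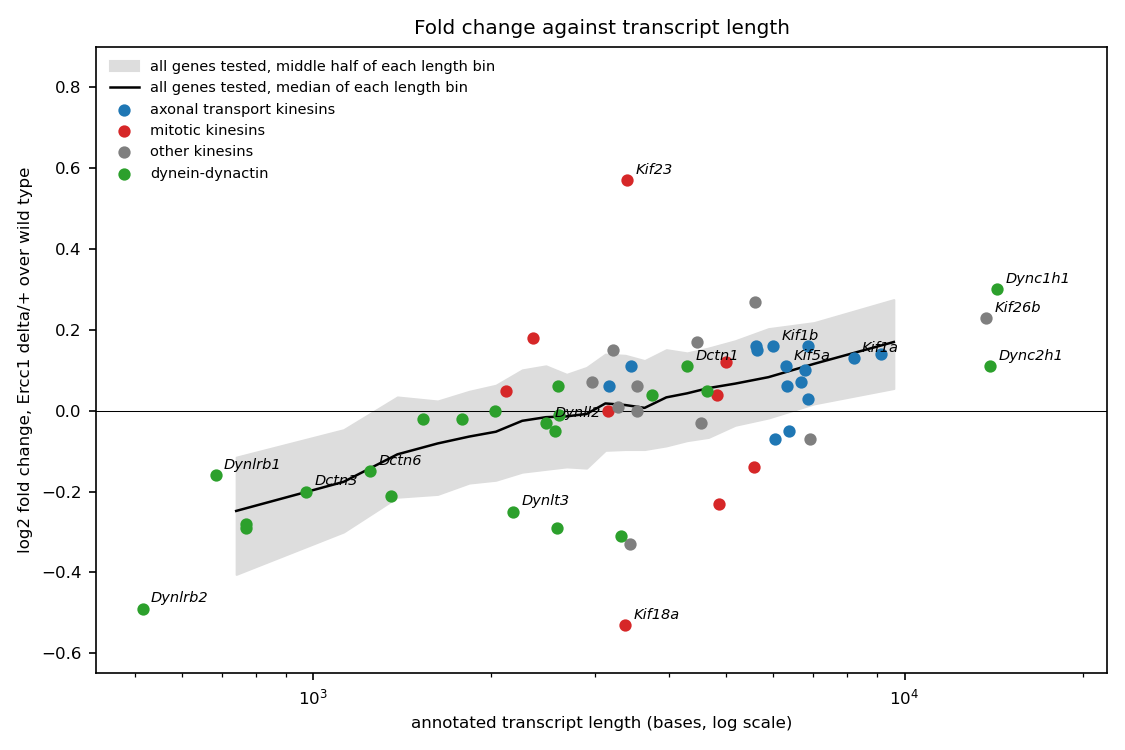
Log2 fold change (Ercc1 delta/+ over wild type) of the 57 tested members against annotated transcript length in bases (log axis), coloured by role; the line is the median of all genes tested in bins of length and the grey band spans their middle quartiles. The line climbs from -0.248 in the shortest bin to 0.17 in the longest, and line and band run from 741 to 9592 bases, the median lengths of these bins. Dynlrb1 (684 bases, -0.16) lies just before the short end, where the band spans -0.405 to -0.115. Dync1h1 (14342 bases, 0.30) lies beyond the long end, where the upper edge is 0.275, so the band gives no comparison at its own length.

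Mitotic kinesins were scarce, and none of the 9 tested passed at an unadjusted p under 0.05, where 18.6% of all genes did. Their median log2 fold change was 0.04, with 5 positive and 4 negative values (49.5% and 50.5% of all genes). Kif20a, at 0.00, was placed by its unrounded value. The median was below 0 without mutant replicate 3 (-0.04), mutant replicate 4 (-0.04) or wild type replicate 1 (-0.02). Kif23, the motor of the central spindle, held 1.53, 0.963, 1.05 and 1.24 CPM in mutants and 0.618, 0.793, 0.551 and 1.22 CPM in wild type. Wild type replicate 4 lay among the mutants and the other wild type libraries below them. Its log2 fold change of 0.57 (SE 0.30) was the largest of all members and rested on 192 counts in all, with an edgeR adjusted p of 0.336.

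Kif18a, which dampens chromosome movements, held 0.511, 0.397, 0.471 and 0.686 CPM in mutants and 0.811, 0.892, 0.945 and 0.396 CPM in wild type. The groups overlapped through wild type replicate 4 alone. The value of -0.53 (SE 0.33) rested on 122 counts. Kif11, which pushes spindle poles apart, had 0.04 (SE 0.17), Kifc1, a minus-end spindle motor, 0.18 (SE 0.16), and Kif15, a second plus-end spindle motor, -0.23 (SE 0.43), or 0.25 without wild type replicate 4.

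Other kinesins had 7 positive and 4 negative values (Kif6, at 0.00, likewise placed) with a median of 0.06, which was -0.02 without mutant replicate 3 and -0.01 without wild type replicate 2. None passed at an unadjusted p under 0.05, where 18.6% of all genes did, and 49.5% of all genes were positive. Kif26b, of a family with altered motor domains, held 23.6, 28.3, 23.2 and 27.4 CPM in mutants and 23.2, 18.2, 22.8 and 23.3 CPM in wild type. Wild type replicate 2 was low and mutant replicates 2 and 4 were high, while the other libraries overlapped. A log2 fold change of 0.23 resulted (SE 0.11, edgeR adjusted p = 0.297), and with the offset it was -0.02, on a transcript of 13749 bases. Kifc2 had 0.15 (SE 0.08), Kif24, which acts at the centriole, 0.27 (SE 0.23) and Kif2a, which takes microtubule ends apart, 0.06 (SE 0.07). Exon bases of Kif2a overlap Dimt1 on the opposite strand by 19.2%.

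Several of these motors serve cilia or the centriole at their base. The set described here was grouped by known role after its values were seen, so its counts are a description only. It held Dync2h1 and Dync2li1 of the dynein that returns cargo along cilia, the light chain Dynlrb2, the kinesin-2 motors Kif3a, Kif3b and Kif17, and Kif6, Kif7, Kif9, Kif19a, Kif24 and Kif27. Of these 12, 5 were highest in wild type replicate 4 and 5 in mutant replicate 3, where 12 and 11 of all 58 members were highest. The 58 include the cilia-linked set itself and the 4 Dynlt1 copies, which were all highest in wild type replicate 4. Kif19a, which sets the length of motile cilia, held 4.27, 3.91, 4.56 and 3.61 CPM in mutants and 4.63, 4.96, 3.58 and 7.32 CPM in wild type, with a log2 fold change of -0.33 (SE 0.21, edgeR adjusted p = 0.441). Wild type replicate 4 stood far above the rest, and without it the value was -0.10.

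Dync2h1 held 64.9, 62.3, 73.4 and 65.9 CPM in mutants and 61.8, 48.2, 53.2 and 84.4 CPM in wild type, so the wild type values enclosed those of the mutants. Its log2 fold change was 0.11 (SE 0.16, edgeR adjusted p = 0.759). Leaving out wild type replicate 2 gave 0.00, wild type replicate 3 gave 0.04, mutant replicate 3 gave 0.06 and wild type replicate 4 gave 0.29, in the last case with groups that did not overlap (edgeR adjusted p = 0.174). The 8 listed markers of ependymal cells, which carry motile cilia, were all above 0 in every library. Their sum was 48.5, 46.9, 72.7 and 66.5 CPM in mutant replicates 1 to 4 and 65.9, 51.3, 31 and 82.9 CPM in wild type replicates 1 to 4. The part of ependymal cells in these values was not tested.

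**Figure D5:**
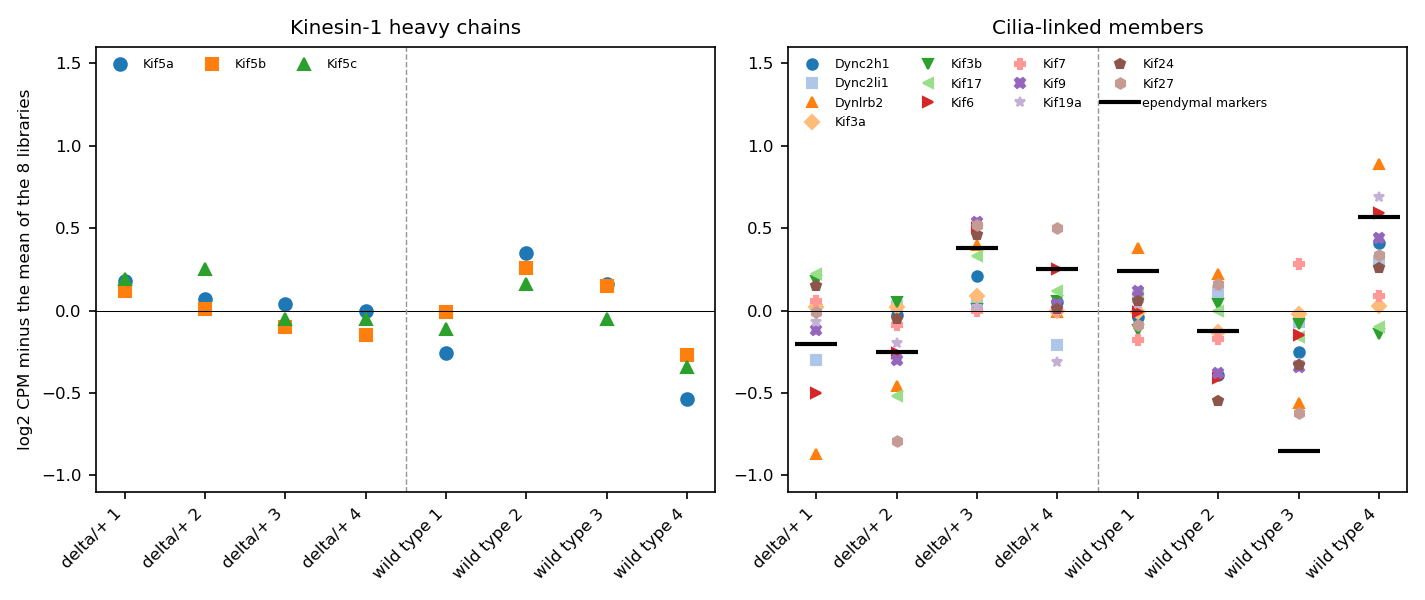
Deviation of log2 CPM from the mean of the 8 libraries, for the kinesin-1 heavy chains (left) and the 12 cilia-linked members with the summed ependymal markers as bars (right). Kif5a, Kif5b and Kif5c are all below 0 in wild type replicate 4 (-0.54, -0.27 and -0.34), while Kif3a and Kif3b stay within 0.18 of their mean in every library.

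Partners of the motors, namely kinesin light chains, adaptors, dynein regulators and the actin-related filament of dynactin, were taken from a list chosen by function. The list was made with earlier results of these data known, and 42 of its 43 genes were measured and tested. None passed after adjustment with the edgeR quasi-likelihood test, the edgeR exact test or limma-voom, and DESeq2 called 1, Capza1. At an unadjusted p under 0.05 there were 6 (14.3%), 3 higher and 3 lower, and groups did not overlap for 8 (19.0%), 6 higher and 2 lower, beside the 18.6% and 12% of all genes given above. With the offset these counts were 3 (7.14%; 11.0% of all genes) and 2 (4.76%; 6.81%). Without the offset, 14.3% of the 42 had groups apart with mutants higher (5.17% of all genes) and 4.76% with mutants lower (6.86%). The median log2 fold change of the 42 was 0.04, and 0.03 with the offset.

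Capza1, a subunit of the actin capping protein that closes an end of the dynactin filament, stood furthest apart. It held 69.9, 73.3, 68.7 and 71.7 CPM in mutant replicates 1 to 4 and 85.0, 82.7, 86.5 and 82.9 CPM in wild type replicates 1 to 4. The groups did not overlap, and each was narrow. The log2 fold change was -0.25 (SE 0.05), with an edgeR adjusted p of 0.0664, which misses the threshold; the adjusted p was 0.0484 without mutant replicate 2, 0.00056 with DESeq2 and at most 0.32 over the alternatives. With the offset its value was -0.16. Its sister subunit Capza2 had -0.21 (SE 0.08), and -0.04 with the offset. Other listed genes of the filament and its cap had values of both signs, and Actr10, given below, was lower. Capzb had 0.01, Actr1a 0.02 and Actr1b 0.14 (SE 0.07 each), and with the offset 0.08, -0.01 and 0.09. Groups of Actr1b did not overlap without the offset, with mutants higher.

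Actr10, the actin-related protein at the pointed end of dynactin, held 97.1, 105, 103 and 99.4 CPM in mutants and 113, 108, 111 and 113 CPM in wild type. The groups did not overlap, and the log2 fold change was -0.14 (SE 0.05, edgeR adjusted p = 0.218). Madd, an adaptor of Kif1a and Kif1b, held 303, 294, 290 and 284 CPM in mutants and 278, 242, 259 and 270 CPM in wild type. Its groups did not overlap either, with mutants higher. The transcript has 5977 bases, and 75.3% of all genes of 5000 bases or more had positive values. For Madd the log2 fold change was 0.16 (SE 0.06, edgeR adjusted p = 0.223), and 0.03 with the offset.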

How the data were processed

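Per the labels' protocols, ventral midbrain poly(A) RNA was fragmented, copied and sequenced as barcoded libraries in a single lane. Per the submitters' processing notes, TopHat 1.3.1, edgeR and the mm9 build were used; no source used here names the counting tool or its treatment of strand and shared reads. The authors deposited raw counts for 19931 coding transcripts, with their own log2 fold changes and p-values (unadjusted and adjusted).

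Of these rows 19600 matched a symbol through RefSeq and GENCODE M21 tables of GRCm38, which gave names, lengths and sequences only, so no coordinates are printed. Each gene was represented by its row of highest total, and 45 with the same counts as another were merged, leaving 15274. Replicates of a group all differed beyond sampling noise (lowest chi-square over degrees of freedom 11.75).

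The test was two-sided edgeR 4.0.16 quasi-likelihood (R 4.3.3) with TMM, filterByExpr (14989 genes) and Benjamini-Hochberg adjustment at 0.05. SE is the estimate over the root of F. CPM are TMM-normalised, with a prior count of 2 on log scales. Other settings tried were upper-quartile and RLE scaling, no filter, a minimum of 1 CPM in 4 libraries, DESeq2 1.42.0, the edgeR exact test, limma-voom (limma 3.58.1), a replicate block, leaving out each library, every transcript row, a depth term (the 4 smallest libraries), and a length and GC offset (lowess span 0.3 per library, fitted above a mean log2 CPM of 2). Tests were tried on simulated data.

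Members and gene lists were chosen with earlier results of these data known. Genes were named by this rule: Ercc1 and a fixed list of motor genes whatever their values. In each role group the 4 smallest p and 2 highest wild type levels were added. Members called or with groups apart and the 4 partner genes of smallest p completed the rule. Values of Capzb, Actr1a and Actr1b were given besides, and these are not among the 41 named genes.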

Additional observations from a re-analysis of the deposited data

Results flagged for a closer look

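In 7 of 126 gene and group pairs (5.56%) a single library lay far from the other 3 of its group, with a gap, as a share of the group's range, above Dixon's critical value, where chance alone gives about 1 in 20. In mutant replicate 2 the level was 335 CPM for Dync1li2 (others 294 to 300), 62.4 CPM for Kif13b (others 49.2 to 50.7) and 223 CPM for Kif1c (others 182 to 187). In wild type replicate 1 it was 92.1 CPM for Dync1li1 (others 79.4 to 81.4) and 1.78 CPM for Kif11 (others 1.61 to 1.64). In wild type replicate 2 it was 0.843 CPM for Kif20b (others 0.64 to 0.669) and 18.2 CPM for Kif26b (others 22.8 to 23.3), the only low value of the 7.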

How the results depend on the processing

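The count of genes past the threshold over all genes tested (7) was 33 with RLE scaling, 86 with upper-quartile scaling, 50 with the stricter filter, 1028 with DESeq2, 294 with the edgeR exact test, 52 with limma-voom, 1 with the length and GC offset, 1 with the depth term, 4 with every transcript row and 0 to 321 when 1 library was left out. Members called (0) became 2 with DESeq2 and remained 0 in the other settings run. Members at an unadjusted p under 0.05 (5; 18.6% of all genes) were 2 with the edgeR exact test (13.5%), 1 with the offset (11.0%), 8 with the depth term (15.9%) and 2 to 7 when 1 library was left out (13.4% to 19.9%). Members with groups apart (4; 12% of all genes) were 1 with upper-quartile scaling (12.4%), 1 with the offset (6.81%) and 4 to 10 when 1 library was left out (18.4% for the 10); the edgeR exact test, limma-voom, the block and the depth term use the same CPM and give no count of their own. The median of the axonal transport kinesins (0.11) was -0.03 with the offset.

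With the replicate number as a block, 0 genes were called and Dync1h1 had a log2 fold change of 0.31 (SE 0.10, edgeR adjusted p = 0.187). Deviations of same-numbered samples correlated at -0.275, 0.168, -0.122 and 0.262, and those of samples with different numbers at -0.522 to 0.502. No pairing by number was seen, but correlations this few cannot settle whether the numbers pair the samples.

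Of 777 values of 41 named genes under other settings, 27 had the opposite sign; values that round to 0.00 were given no direction. With the offset these were Kif1a (-0.06), Kif5a (-0.04), Kif21a (-0.01), Kif26b (-0.02), Dync1i2 (0.05), Dync1li1 (0.02), Dync2h1 (-0.01), Dynlrb1 (0.12), Dctn1 (-0.02), Dctn2 (0.01), Dctn5 (0.11) and Dctn6 (0.02), and with the depth term Kif5a (-0.02), Dynll2 (0.02), Dctn4 (-0.03) and Kif15 (0.18). Leaving out 1 library gave ranges across 0 for Dync1i1 (-0.03 to 0.11), Dync1li1 (-0.03 to 0.04), Dynll2 (-0.06 to 0.01), Dctn5 (-0.07 to 0.02), Kif11 (-0.04 to 0.12), Kif5b (-0.16 to 0.01), Kif5a (-0.03 to 0.26) and Kif15 (-0.47 to 0.25). Beyond the offset, which removes the length trend by construction, the cause of these shifts was not tested. Depth limits the mitotic kinesins most: Kif18a rests on 122 counts and Kif20b on 129.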

Other observations

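The 4 Dynlt1 copies had nearly equal total counts, yet the length and GC offset gave Dynlt1a a log2 fold change of -0.32 and Dynlt1b -0.03, where without it they had -0.31 and -0.29. Their annotated lengths are 3321 and 771 bases, and the offset uses these.

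For 17 members the table holds more than 1 transcript, 56 in all. None of the 56 was called in the edgeR fit on every transcript, and in 15 of the 17 genes the log2 fold changes of the transcripts lay within 0.05 of each other. The exceptions were Kif1b, given above, and Dynlt1f, whose transcripts ran from -0.29 to -0.07.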
